A study of Mus musculus with 54 samples.

Results

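The chemokines and chemokine receptors were described across trigeminal ganglion (TG), cornea and sorted myeloid cells of mice lacking the miR-183/96/182 cluster (miR-183C) and of their WT controls. The members were chosen by symbol alone: every row of the count table named as a Ccl, Cxcl, Ccr, Cxcr or Ackr gene followed by a number, together with Cx3cl1, Cx3cr1, Xcl1 and Xcr1. The rule took 61 of 35976 gene rows, made up of 39 ligands, 18 receptors and 4 atypical receptors. Ccr1l1, Ccrl2, Pf4, Ppbp and Cmklr1, which are close to the family by sequence or name, fell outside it. RNA was read from its 3′ end in 42 libraries of male mice aged 8 to 12 weeks.

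In the sensory nerve-specific knockout (SNS-CKO, 3 libraries in each of TG and cornea), mice with a floxed miR-183C carried Nav1.8-Cre, which acts in nociceptive sensory neurons. Their WT controls (SNS-strain WT, 4 libraries a tissue) carried the same Cre without a floxed allele, and both had a Cre-dependent red reporter. In the myeloid-specific knockout (MS-CKO, 5 libraries a tissue), the floxed cluster met LysM-Cre, an insertion that disrupts 1 copy of Lyz2, while the MS-strain WT controls (5 libraries a tissue) were floxed without Cre. The conventional knockout (KO) was a gene-trap allele on a 129S2/C57BL/6 mixed background, with WT littermates of that strain, and it entered only through sorted cells. Csf1r-EGFP+ cells were sorted from pooled corneas (corneal resident myeloid cells, CRMCs) and spleens of several mice, giving per organ 1 KO pool with its KO-strain WT pool and 1 MS-CKO pool with its MS-strain WT pool. Columns named for KO and WT TG and cornea held copies of 11 libraries read here as MS-strain and were left out. Read as KO-strain columns, all 11 conflict in strain with the names used here, which was not settled. The names also conflict in tissue or genotype: 1 named TG KO equals the cornea of MS-strain WT 4, and 1 named TG WT equals the ganglion of MS-CKO 3. Under the names used here each such library had the markers of its tissue (Krt12 at 23597 CPM in that cornea and 0 CPM in that ganglion, in counts per 1000000 counts of the library, CPM). Its genotype was not settled by Lyz2, which was at 1.07 CPM in that ganglion, where 3 counts are 0.80 CPM. The other MS-CKO ganglia had 0.754 to 2.36 CPM, against 2.34 to 7.24 CPM in MS-strain WT ganglia. SNS-strain WT ganglia, without LysM-Cre, went down to 1.48 CPM. In CRMC pools Lyz2 was higher in MS-CKO (77.5 CPM) than in MS-strain WT (19.8 CPM).

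Chemokines are small secreted proteins that guide leukocytes along gradients, and their receptors are 7-pass membrane proteins that signal through inhibitory G proteins. Atypical receptors bind the same ligands without that signal and shape how much ligand is free. In the cornea and its sensory ganglion, resident macrophages carry Cx3cr1, whose ligand fractalkine (Cx3cl1) is made by epithelium and neurons as a membrane-tethered protein.

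Total counts ran between 2934793 and 5387042 in TG, 2366126 and 6741290 in cornea, 2261266 and 10803867 in CRMC pools and 5140261 and 9790238 in spleen pools. CRMC pools held counts in 1650 to 6455 gene rows, against 7323 to 10559 in spleen pools. The library names carry a B2 tag in every SNS-strain library, in MS-CKO 4 and 5 and in MS-strain WT 5, so that in the MS strain the tag is unevenly spread over genotypes. The rows for Mir183, Mir96 and Mir182 were at 0 counts in all 42 libraries, KO, CKO and WT alike, so they do not check the genotype labels. Neuronal markers fitted the ganglion (6 genes summing to 3179 to 4092 CPM in TG and 0 to 5.49 CPM in cornea), and Krt12 reached 20220 to 38160 CPM in cornea. CRMC pools held macrophage and monocyte markers at 1948 to 9932 CPM beside corneal epithelial markers at 9473 to 38369 CPM and keratocyte markers at 5795 to 52200 CPM. Csf1r was read in all 8 sorted pools (182 to 1029 CPM in CRMCs and 651 to 1260 CPM in spleen). Other markers of that list were less even. Ptprc was at 0 CPM in KO, 46.9 CPM in KO-strain WT, 105 CPM in MS-CKO and 379 CPM in MS-strain WT CRMCs, against 480 to 1022 CPM in spleen. Lyz2 was at 2368, 933, 77.5 and 19.8 CPM in the same CRMC pools, against 279 to 1074 CPM in spleen. In bulk tissue, fewer cells of a type and less RNA per cell cannot be told apart.

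The cluster encodes 3 miRNAs, and their 5p arms are shown because seed matches in member 3′ UTRs are the sequence feature that ties the members to the deleted locus. All lie on the minus strand of chromosome 6 in GRCm38 (RefSeq GRCm38.p6): miR-183-5p at chr6:30169711-30169732, miR-96-5p at chr6:30169506-30169528 and miR-182-5p at chr6:30165962-30165986. Capitals mark the seed, bases 2 to 8.
miR-183-5p: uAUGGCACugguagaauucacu
miR-96-5p: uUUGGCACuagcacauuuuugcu
miR-182-5p: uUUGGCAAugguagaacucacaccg

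A match to bases 2 to 8 (GTGCCAT for miR-183-5p, GTGCCAA for miR-96-5p and TTGCCAA for miR-182-5p, on the transcript strand) was searched in the annotated 3′ UTRs. Of the 58 members with a 3′ UTR, 12 (20.7%) held at least 1 such match, beside 4686 of 19998 genes (23.4%). Among the 12 were the ligands Ccl9, Ccl20, Ccl22, Ccl25, Cx3cl1, Cxcl10 and Cxcl12 and the receptors Ccr2, Ccr9, Cxcr2 and Xcr1. A match is a description of letters, and no measurement of pairing was made. Stretches from 4 members that the results below return to are given with the match in capitals, on the strand of the transcript.
Cx3cl1, miR-183-5p match, chr8:94782359-94782386, plus strand: aagcatcattaccaatgtctGTGCCATt
Cxcl10, miR-183-5p match, chr5:92347050-92347077, minus strand: ggtgcgacgcccttcaccatGTGCCATg
Ccr2, miR-182-5p match, chr9:124108442-124108469, plus strand: cctttgtaagagctcttatcTTGCCAAg
Cxcl12, miR-182-5p match, chr6:117181077-117181104, plus strand: ccaaaacccactcagcaaagTTGCCAAc

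The match in Cx3cl1 starts at base 1823 of a 3′ UTR of 1871 bases. Ccr9, the receptor for Ccl25, held the most matches, 2 for miR-96-5p and 1 for miR-182-5p.

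The 4 kinds of material differed in which members were read at all. Counts were found for 51 of the 61 members in TG, 38 in cornea, 20 in CRMC pools and 30 in spleen pools, and 8 were at 0 in every library: Ccl19, Ccl21a, Ccl21b, Ccl21c, Ccl27b, Ccr8, Cxcl3 and Cxcl15. The members summed to 228 to 301 CPM in TG and 81.2 to 119 CPM in cornea. In CRMC pools they summed to 4096 to 17141 CPM, against 1518 to 2886 CPM in spleen pools. Since each read marks a transcript end, these levels were not divided by gene length.

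The makeup of the sum differed as well. Ligands took a median of 98.4% of the member CPM in CRMC pools, against 55.4% in spleen pools, where receptors took 41.4%. In TG the atypical receptors took 41.3%, nearly all of it Ackr1, and in cornea ligands took 68.4%. The leading members in TG were Ackr1 (mean 96.0 CPM), Cx3cr1 (32.7 CPM), Cxcl12 (30.4 CPM), Ccl27a (12.6 CPM) and Cxcr4 (11.5 CPM). Those of cornea were Cx3cl1 (30.3 CPM), Cxcl16 (21.2 CPM), Ackr3 (15.6 CPM), Ccr9 (7.43 CPM) and Cxcl14 (6.68 CPM). CRMC pools were led by Cxcl2, Ccl3, Ccl7, Ccl4 and Ccl12, and spleen pools by Ccl6, Cx3cr1, Ccl5, Cxcr2 and Cxcr4.

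WT ganglion and WT cornea were compared within each strain to place the members in the 2 tissues that the corneal sensory nerves connect. The ligand and the receptor of the fractalkine pair stood on opposite sides: Cx3cl1 was lower in TG and Cx3cr1 was higher in TG. In both strains Ackr1, Cxcl12, Cxcr4 and Ccl11 were higher in TG, and the ligands Cxcl14 and Cxcl16 with the atypical receptor Ackr3 were lower. Ccr9 was lower in TG of the SNS strain and Ackr4 in TG of the MS strain, each being tested in that strain only. In the SNS-strain WT, 14 of 61 members passed the filter on low counts and 14 were called by edgeR at an adjusted p under 0.05, 9 higher and 5 lower in TG, where 78.5% of all genes tested were called (41.3% higher and 37.2% lower). In the MS-strain WT, 13 members passed and 12 were called, 7 higher and 5 lower, where 77.4% of genes were called (40.4% higher and 37% lower). DESeq2 called the same numbers of members, 14 and 12, where 77.4% and 78% of genes were called. Without a filter edgeR called 26 and 25, where 54.1% and 54.8% of genes were. Several members passed the filter only through TG, so their counts follow from the filter in part.

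Cx3cl1, at chr8:94772009-94782427 on the plus strand of mm10, had 7.60, 6.98, 4.48 and 6.23 CPM in SNS-strain WT ganglia, against 24.4, 18.2, 19.9 and 27.4 CPM in corneas. In the MS-strain WT the ganglia had 5.2, 5.70, 4.55, 3.71 and 3.37 CPM, against 37.5, 26.1, 35.9, 34.2 and 31.8 CPM in corneas. No ganglion came near a cornea in either strain. The log2 difference of TG over cornea was -1.94 (SE 0.24, edgeR adjusted p = 7.2e-08) in the SNS strain and -3.04 (SE 0.21, edgeR adjusted p = 1.1e-10) in the MS strain. The difference between the 2 strains in this tissue contrast did not pass the test (1.10, SE 0.31, edgeR adjusted p = 0.165, where 0.18% of genes were called).

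Cx3cr1, the receptor of resident macrophages and monocytes, had 26.3, 17.6, 35.9 and 36.2 CPM in SNS-strain WT ganglia, against 2.01, 2.92, 1.69 and 1.29 CPM in corneas. The MS-strain WT ganglia had 40.8, 36.0, 37.5, 27.3 and 35.2 CPM, against 5.51, 2.37, 2.70, 5.81 and 3.93 CPM in corneas. Every ganglion lay above every cornea, by 3.69 on the log2 scale (SE 0.32, edgeR adjusted p = 1.9e-10) in the SNS strain and 2.99 (SE 0.25, edgeR adjusted p = 1.9e-09) in the MS strain. The 8 macrophage and monocyte markers moved the same way, at 78.4 to 120 CPM over all TG libraries and 13.4 to 30.4 CPM over all cornea libraries, and their part in the Cx3cr1 difference was not tested. The annotated Cx3cr1 gene at chr9:119901616-120069879 shares bases with Gorasp1, Csrnp1 and Xirp1 on its own strand.

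Cxcl12, the stromal ligand that holds cells in place through Cxcr4, had 26.9, 26.4, 30.3 and 30.0 CPM in SNS-strain WT ganglia, against 0, 0.675, 0.845 and 0.259 CPM in corneas (5.79 on the log2 scale, SE 0.37). In the MS-strain WT it averaged 29.2 ± 2.52 CPM in ganglia and 1.24 ± 1.24 CPM in corneas (SD, n = 5 each; log2 difference 4.45 ± 0.43 SE). Cxcr4 averaged 12.0 ± 2.61 CPM in SNS-strain ganglia and 11.5 ± 3.01 CPM in MS-strain ganglia and was at 0 in all 9 WT corneas, which puts TG at least 54.7-fold and at least 97.3-fold higher against a floor of 3 counts over the group. Ackr3, which scavenges Cxcl12, went the other way: it averaged 4.69 ± 1.68 CPM in SNS-strain ganglia and 13.9 ± 3.19 CPM in corneas (n = 4 each), and 6.4 ± 1.59 CPM in MS-strain ganglia and 14.5 ± 2.34 CPM in corneas (n = 5 each). All 3 differences passed the test in both strains.

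Ackr1, the atypical receptor of venular endothelium and red cells, was the highest member of the ganglion. It had 79.8, 71.4, 65.6 and 85.4 CPM in SNS-strain WT ganglia and 94.7, 94.5, 137, 111 and 120 CPM in MS-strain WT ganglia, against 0 in all 9 WT corneas. The bounds were at least 344-fold and at least 942-fold. Vascular endothelial markers summed to 32.2 to 56.2 CPM over TG libraries and 2.06 to 12.7 CPM over cornea libraries, a cornea being avascular outside its rim; their part in the difference was not tested. The end of Cadm3 overlaps Ackr1 on the same strand, which makes the Ackr1 level uncertain, and its part in these counts was not tested.

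Among the inflammatory ligands, Ccl11 (eotaxin, a ligand of Ccr3) averaged 10.2 ± 2.47 and 9.44 ± 2.52 CPM in the SNS- and MS-strain ganglia and was at 0 in every WT cornea. Cxcl11, an interferon-induced ligand of Cxcr3, averaged 7.19 ± 3.11 CPM in SNS-strain ganglia and 0.0647 ± 0.129 CPM in corneas. In the MS strain it averaged 7.38 ± 2.3 CPM in ganglia and 0 in corneas. The annotation lists Cxcl11 as a polymorphic pseudogene, so these counts do not show a working ligand. Cxcl11 and Cxcl10 both lie inside Art3 on the opposite strand, and the sources used here do not state whether counting used strand. Ccr2, the monocyte receptor for Ccl2, averaged 9.27 ± 2.56 CPM in SNS-strain ganglia and 0.484 ± 0.610 CPM in corneas, and 5.54 ± 2.15 CPM in MS-strain ganglia and 0.0424 ± 0.0948 CPM in corneas.

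On the corneal side, Cxcl16, a membrane-bound ligand of Cxcr6, averaged 9.68 ± 1.52 CPM in SNS-strain ganglia and 18.4 ± 4.19 CPM in corneas, and 10.4 ± 1.45 CPM in MS-strain ganglia and 23.3 ± 6.08 CPM in corneas. Cxcl14, a constitutive epithelial ligand, averaged 2.3 ± 0.617 CPM in SNS-strain ganglia and 7.43 ± 1.63 CPM in corneas. Ccr9 was lower in SNS-strain ganglia (0.795 ± 0.544 CPM) than in corneas (7.28 ± 1.54 CPM), a log2 difference of -3.26 (SE 0.49, edgeR adjusted p = 2.1e-06). In the MS strain it was not tested, with 0.895 ± 0.552 CPM in ganglia and 7.94 ± 4.64 CPM in corneas. There cornea 1, at 0.424 CPM, lay within the ganglia (0.260 to 1.67 CPM). Ccr9 overlaps Lztfl1 on the opposite strand. Ackr4, a scavenger of Ccl25 and of the Ccr7 ligands, averaged 0.732 ± 0.406 CPM in MS-strain ganglia and 4.53 ± 1.26 CPM in corneas. In the SNS strain, where it was not tested, it averaged 0.685 ± 0.514 CPM in ganglia and 3.44 ± 1.63 CPM in corneas. Ccl25 itself was the 1 tested member that was not called, with 3.01 ± 1.31 CPM in MS-strain ganglia and 1.88 ± 1.15 CPM in corneas.

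**Figure D1:**
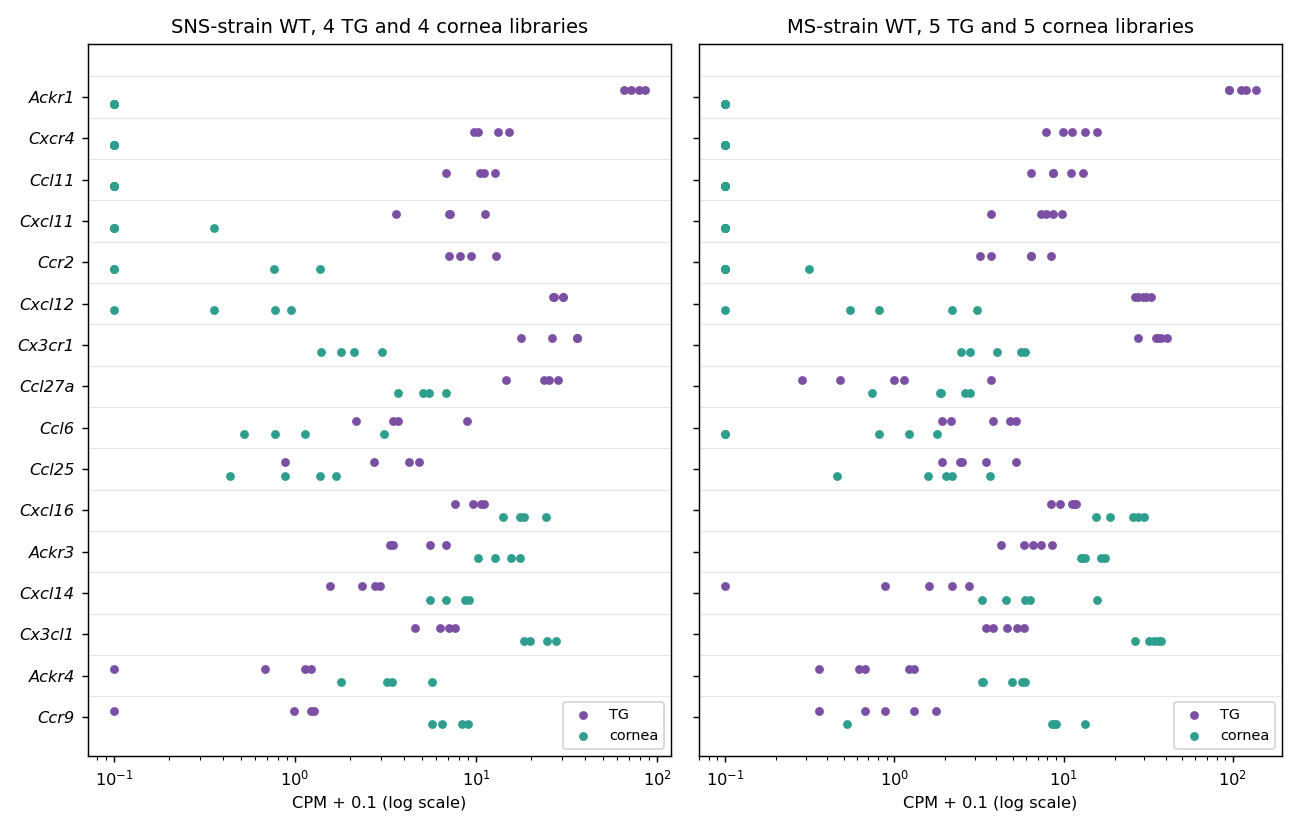
CPM + 0.1 on a log axis for the members tested between WT TG and WT cornea in at least 1 strain; each point is 1 library, with TG points above cornea points in each row. Ackr1, Cxcr4 and Ccl11 sit at 0 in all 9 corneas, while Cx3cl1 lies between 3.37 and 7.60 CPM in the ganglia and between 18.2 and 37.5 CPM in the corneas.

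The CKO against WT comparisons asked whether loss of miR-183C in nociceptive neurons or in myeloid cells moved any member in the ganglion or cornea. No member was called in any of the 4. In TG of SNS-CKO mice, 0 of 15 members tested passed edgeR, where 0.0392% of genes did (5 of 12769), and 0 passed at an unadjusted p under 0.05, where 6.67% of genes did. In TG of MS-CKO mice, 0 of 14 passed, where 0% of genes did, and 1 passed unadjusted, where 2.98% of genes did. In cornea of SNS-CKO mice, 0 of 7 passed, where 0% of genes did, with 1 unadjusted against 6.24% of genes. In cornea of MS-CKO mice, 0 of 8 passed, where 0% of genes did, with 0 unadjusted against 3.56% of genes. DESeq2 also called 0 members in each, where 0.0392% of genes in SNS-CKO TG and 0% in the other 3 comparisons were called. Without a filter edgeR called 0 members in SNS-CKO TG, where 0.144% of genes were called, and 0 in cornea of SNS-CKO and MS-CKO mice, where 0.177% and 0.126% were. The call of 1 member in MS-CKO TG without a filter, Ccl27a, is taken up with the library tags, and within the tagged MS-strain corneas 0 were called, where 0.0349% of genes were. The members' median log2 changes were -0.06, -0.02, 0.13 and 0.03 in that order, beside 0.00 over all genes in each. The tests measure the spread between these mice only, and a member that misses the threshold is not thereby shown to be unchanged.

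Cx3cl1 had 4.90, 2.68 and 3.68 CPM in SNS-CKO ganglia, against 7.60, 6.98, 4.48 and 6.23 CPM in SNS-strain WT ganglia. The groups overlapped by 1 library each way, and the log2 change was -0.76 (SE 0.40, edgeR adjusted p = 0.765). In corneas of the same strain it had 26.3, 29.7 and 37.8 CPM in SNS-CKO mice, against 24.4, 18.2, 19.9 and 27.4 CPM in WT controls, a log2 change of 0.49 (SE 0.20, edgeR adjusted p = 0.778). Leaving out 1 library at a time gave 0.32 to 0.60 with adjusted p-values between 0.453 and 0.999.

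In the MS strain, Cx3cl1 in the ganglia was at 7.67, 4.27, 5.07, 2.62 and 4.77 CPM in MS-CKO mice, against 5.2, 5.70, 4.55, 3.71 and 3.37 CPM in WT controls (0.12, SE 0.37, edgeR adjusted p = 0.999). The strain of each library was read from short tags in its column name. Another reading took all untagged libraries as SNS and all libraries with the B2 tag as MS. The TG values for Cx3cl1 then became 0.26 in the SNS and -0.63 in the MS comparison, so which strain has the lower value depends on the reading. The MS-strain corneas had 25.1, 40.5, 41.8, 27.5 and 31.1 CPM in MS-CKO mice, against 37.5, 26.1, 35.9, 34.2 and 31.8 CPM in WT controls (0.02, SE 0.17, edgeR adjusted p = 0.999). The difference between the strains in the knockout effect, SNS minus MS, was -0.88 (SE 0.55) in TG and 0.48 (SE 0.26) in cornea, and neither passed the test (edgeR adjusted p = 0.998 and 0.999). Of 19 members tested for that difference in TG and 10 in cornea, 0 were called in each, where 0.00728% and 0% of genes were; DESeq2 called 0 in each, where 0.0291% and 0% of genes were, and 1 and 0 passed unadjusted, where 4.17% and 2.48% of genes did. Without a filter 1 member (Ccl27a) was called in TG and 0 in cornea, where 0.0724% and 0.0697% of genes were.

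Cx3cr1 had 46.1, 30.5 and 19.4 CPM in SNS-CKO ganglia, against 26.3, 17.6, 35.9 and 36.2 CPM in WT controls (0.15, SE 0.23). MS-CKO ganglia had 35.5, 39.5, 36.8, 27.2 and 27.9 CPM, against 40.8, 36.0, 37.5, 27.3 and 35.2 CPM in WT controls (-0.08, SE 0.16). The groups lay within each other in both. In cornea it had 3.33, 1.88 and 2.05 CPM in SNS-CKO mice, against 2.01, 2.92, 1.69 and 1.29 CPM in WT controls, which fell under the filter on low counts. MS-CKO corneas had 3.62, 4.75, 7.84, 5.33 and 1.60 CPM, against 5.51, 2.37, 2.70, 5.81 and 3.93 CPM in WT controls (0.20, SE 0.43).

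**Figure D2:**
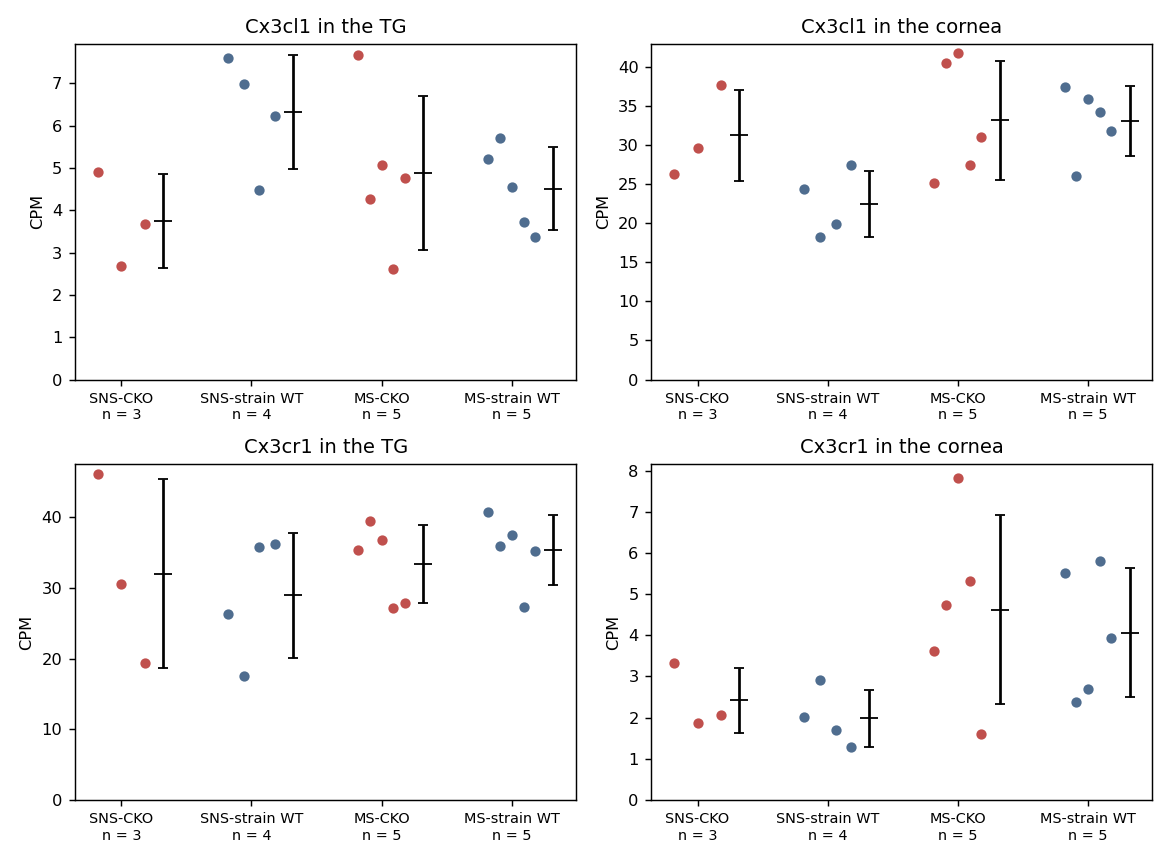
CPM of Cx3cl1 and Cx3cr1 in TG and cornea; each point is 1 library, the bar beside it the group mean with its SD, with 3 and 4 libraries of SNS-CKO and its WT and 5 each of MS-CKO and its WT in a panel. CKO and WT points overlap in every panel.

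Ccr2 had 4.90, 6.83 and 6.70 CPM in SNS-CKO ganglia, against 12.9, 6.98, 9.25 and 8.01 CPM in SNS-strain WT ganglia (-0.59, SE 0.33, edgeR adjusted p = 0.783). The nearest libraries of the groups were SNS-CKO 2 with 28 counts and WT 2 with 27 counts. In the MS strain the Ccr2 groups overlapped (3.44 to 8.90 CPM in MS-CKO ganglia and 3.12 to 8.33 CPM in WT ganglia). Cxcl16 had 9.26, 7.04, 4.80, 6.80 and 6.81 CPM in MS-CKO ganglia, against 11.7, 11.1, 11.4, 9.47 and 8.29 CPM in MS-strain WT ganglia, a log2 change of -0.59 (SE 0.27, edgeR adjusted p = 0.999). It was -0.62 (SE 0.34) within the libraries without the B2 tag and -0.31 (SE 0.53) within those with it, where only 1 WT library is left. In SNS-CKO ganglia Cxcl16 differed from WT by -0.06 (SE 0.30).

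Cxcl10, an interferon-induced ligand of Cxcr3, had 6.35, 5.03, 5.07, 2.36 and 3.75 CPM in MS-CKO ganglia, against 1.56, 1.5, 2.65, 3.34 and 3.88 CPM in MS-strain WT ganglia (0.78, SE 0.42, edgeR adjusted p = 0.999). Within the untagged libraries the change was 1.24 (SE 0.54), and within the tagged ones, 2 MS-CKO against 1 WT, it was -0.39 (SE 0.92); the difference between them was not tested. Cxcl12 had 26.8, 37.6 and 36.2 CPM in SNS-CKO ganglia, against 26.9, 26.4, 30.3 and 30.0 CPM in WT controls (0.24, SE 0.16). Ccl11 had 5.29, 12.3, 8.00, 6.28 and 3.75 CPM in MS-CKO ganglia, against 8.59, 12.9, 8.52, 6.31 and 10.9 CPM in WT controls (-0.38, SE 0.32). None of the 3 passed the test.

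In cornea, Ackr3 had 15.3, 14.3 and 19.5 CPM in SNS-CKO mice, against 17.4, 12.6, 10.1 and 15.5 CPM in WT controls (0.24, SE 0.24). MS-CKO corneas had 23.6, 7.91, 24.3, 11.1 and 20.7 CPM of it, against 17.4, 16.6, 13.2, 12.7 and 12.5 CPM in WT controls (0.29, SE 0.27). Cxcl14 had 6.17, 3.96, 8.64, 2.87 and 3.01 CPM in MS-CKO corneas, against 3.18, 6.23, 4.45, 5.81 and 15.7 CPM in WT controls. Its change of -0.44 (SE 0.43) rested on WT library 5, without which it was 0.03. Corneal Ccr9, the receptor with matches to 2 of the miRNAs, averaged 6.21 ± 2.12 CPM in SNS-CKO mice and 7.28 ± 1.54 CPM in WT controls, and 7.77 ± 5.52 CPM in MS-CKO mice and 7.94 ± 4.64 CPM in WT controls.

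Ccl27a, a keratinocyte ligand of Ccr10, divided the libraries by their column tag more than by genotype. In TG it lay between 3.63 and 34.5 CPM in the 10 tagged libraries and between 0.186 and 1.87 CPM in the 7 untagged ones, without overlap. Within the MS strain it averaged 13.6 ± 10.4 CPM in 3 tagged ganglia and 0.961 ± 0.680 CPM in 7 untagged ganglia (3.31 on the log2 scale, SE 0.52, edgeR adjusted p = 5.7e-05), the only member called of 17 tested, where 7.07% of genes were. MS-CKO ganglia had 1.85, 0.503, 1.87, 24.3 and 12.9 CPM, against 1.04, 0.90, 0.379, 0.186 and 3.63 CPM in MS-strain WT ganglia. The 2 highest MS-CKO libraries and the highest WT library are the tagged ones.

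Ccl27a did not pass the filter in that comparison. Without a filter it was called (2.77, SE 0.50, edgeR adjusted p = 1.1e-04, where 0.0474% of genes were called), although the tag is unevenly spread over genotypes. Within the tagged libraries alone, 2 MS-CKO against 1 WT, the fit gave 2.34 (SE 0.47, edgeR adjusted p = 2.7e-04, where 0.703% of genes were called). The WT arm there has no replicate, and the fit assumed it to vary like the 2 MS-CKO libraries. In the SNS strain, where all libraries are tagged, it had 11.8, 27.6 and 34.5 CPM in SNS-CKO ganglia, against 28.3, 25.3, 14.6 and 23.7 CPM in WT ganglia (0.09, SE 0.25, edgeR adjusted p = 0.977). Between tissues, the SNS-strain WT, all tagged, averaged 23.0 ± 5.93 CPM in ganglia and 5.2 ± 1.29 CPM in corneas. Tagged MS-strain libraries averaged 13.6 ± 10.4 CPM in TG and 3.61 ± 1.22 CPM in cornea (SD, n = 3 each), and untagged ones 0.961 ± 0.680 CPM in TG and 2.14 ± 1.33 CPM in cornea (SD, n = 7 each). TG was thus the higher tissue in the tagged libraries of both strains and not in the untagged ones, and the difference between tags in this tissue contrast was not tested.

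Krt12, a corneal epithelial keratin, moved with the tag in TG too, at 15.3 to 25.1 CPM in tagged ganglia and 0 to 0.90 CPM in untagged ones, and its part in the Ccl27a levels was not tested. In cornea Ccl27a lay at 2.50 to 6.76 CPM in tagged and 0.636 to 4.47 CPM in untagged libraries. Its mean in the tagged corneas (4.35 CPM) was lower than in the tagged ganglia (20.7 CPM), whose range of 3.63 to 34.5 CPM overlapped both. The gene at chr4:41769467-41774247 shares 8 bases with Il11ra1 on the opposite strand, and Il11ra1 itself overlapped between tags (11.4 to 24.8 CPM in tagged ganglia and 9.87 to 25.1 CPM in untagged ones). Near-identical copies of Ccl27a make its counts uncertain. In MS-strain cornea 0 of 9 members were called between tags, where 3.01% of genes were; Ccl25 averaged 0.256 ± 0.223 CPM in tagged and 2.27 ± 0.851 CPM in untagged corneas (edgeR adjusted p = 0.0664).

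**Figure D3:**
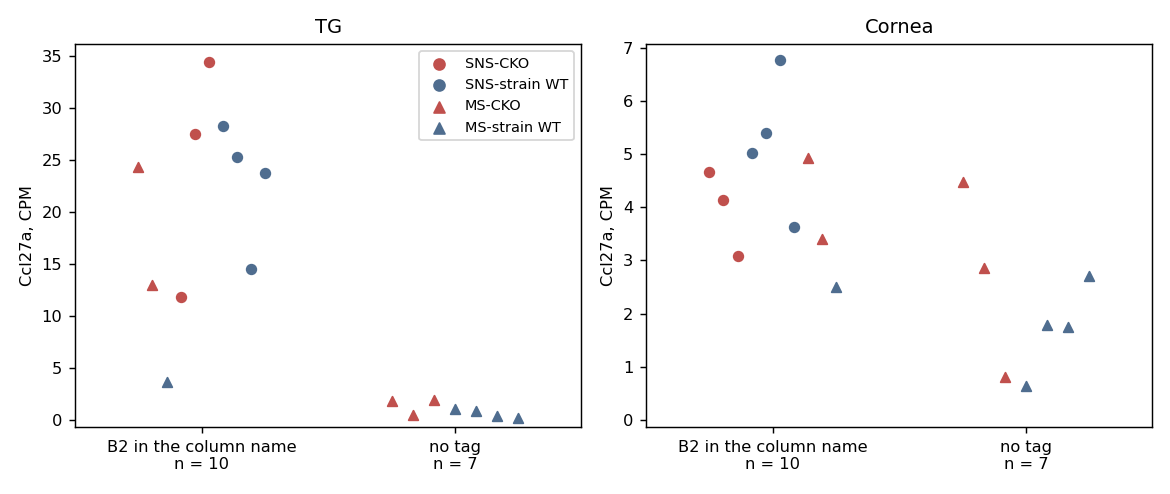
CPM of Ccl27a in TG and cornea, with libraries split by whether their column name carries the B2 tag; each point is 1 library, circles are the SNS strain, triangles the MS strain, red CKO and blue WT. In TG the 10 tagged libraries lie at 3.63 CPM or more and the 7 untagged ones at 1.87 CPM or less.

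Sorted CRMCs were set against sorted spleen myeloid cells, over the 4 genotypes as pairs, to see which members mark the corneal cells. Ligands that attract neutrophils and monocytes stood out in the CRMC pools: Cxcl2 and Cxcl1, ligands of Cxcr2; Ccl2, Ccl7 and Ccl12, ligands of Ccr2; and Ccl3 and Ccl4, the macrophage inflammatory proteins. These 7 of 21 members tested had every CRMC pool above every spleen pool, where 2.08% of genes did. Of the 7, Ccl2, Ccl7, Ccl12 and Cxcl1 were at 0 in all 4 spleen pools, Cxcl2 and Ccl4 had counts in 1 and Ccl3 in 3. All 7 thus passed the filter on low counts only through the CRMC pools, where they were high. Their place in the count, and the calls of those among them, follow from the filter in part. The receptors Cxcr2 and Ccr2 lay on the other side, with every CRMC pool below every spleen pool. edgeR called 6 of the 21, 5 higher (Cxcl2, Ccl7, Ccl2, Ccl4 and Ccl12) and 1 lower (Ccl6), where 2.01% of genes were called (0.848% higher and 1.16% lower). At an unadjusted p under 0.05, 15 passed, 7 higher and 8 lower, where 23.8% of genes did. DESeq2 called 18, 7 higher and 11 lower, where 62.9% of genes were called, edgeR without a filter called 5, where 0.828% of genes were, and the fit without the genotype pair called 12, where 19.4% were. Leaving out 1 genotype pair at a time left 2 to 5 by edgeR: 3 without the KO pair, 2 without the MS-CKO pair, and 5 each without the KO-strain WT or the MS-strain WT pair, where 1.22%, 1.09%, 2.26% and 1.35% of genes were called. On data simulated with the spread of these pools the edgeR fit did not recover the changes put in, so a member that misses the threshold here says nothing about its level.

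Cxcl2 had 4615 CPM in the KO, 3978 CPM in the KO-strain WT, 1290 CPM in the MS-CKO and 1093 CPM in the MS-strain WT pool of CRMCs, against 30.5, 0, 0 and 0 CPM in the spleen pools of the same genotypes (edgeR adjusted p = 2.6e-09). Ccl3 had 1499, 2843, 714 and 840 CPM in CRMC pools, against 91.2, 161, 56.9 and 0 CPM in spleen pools, and did not pass (edgeR adjusted p = 0.0926). Ccl4 had 832, 2100, 750 and 305 CPM in CRMC pools, against 0, 0, 8.17 and 0 CPM in spleen pools. These 3 ligands were read in every CRMC pool.

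The Ccr2 ligands had no count in any spleen pool. Ccl7 had 4804, 7935, 5959 and 1492 counts in the CRMC pools (KO and its WT, then MS-CKO and its WT), Ccl2 had 5011, 2139, 6671 and 840, and Ccl12 had 1105, 5378, 2278 and 332. Against a floor of 3 counts over the spleen pools, these were at least 13880-fold, at least 7366-fold and at least 7422-fold higher in CRMCs. Without the KO-strain WT pool of CRMCs, which held the most Ccl7 and Ccl12, the bounds were 6542-fold for Ccl7 and 1785-fold for Ccl12. Ccl2, Ccl7 and Ccl12 lie within chr11:82035571-82103400 on the plus strand of mm10. Cxcl1, with 49, 1352, 1228 and 125 counts in CRMC pools and 0 in spleen pools, was at least 1898-fold higher (492-fold without the KO-strain WT pool of CRMCs) and did not pass edgeR (adjusted p = 0.0926). The fitted log2 values of such members depend on the prior count and are not given as sizes.

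Every CRMC pool lay below every spleen pool for 8 of the 21 members, where 26.3% of genes did so. The 8 were Ackr2, a scavenger of inflammatory CC ligands, the ligands Ccl5, Ccl6 and Cxcl9 and the receptors Ccr1, Ccr2, Ccr3 and Cxcr2. Of the 8, Ackr2, Ccl5, Ccr1, Ccr3 and Cxcl9 were at 0 in all 4 CRMC pools. Over the CRMC pools Cxcr2 had 1 count and Ccr2 had 5, and Ccl6 was read in 2 of them. All 8 thus passed the filter only through the spleen pools, where they were high. Over all genes the median fitted log2 difference was -6.73, a value that depends on the prior count, and the CRMC pools held fewer genes at all, so a member lower in CRMCs shares that with most genes. Ccl6, a myeloid CC ligand of mice, had 160, 0, 25.1 and 0 CPM in CRMC pools, against 1138, 1137, 939 and 643 CPM in spleen pools (edgeR adjusted p = 0.0444), a call that was lost without the MS-CKO pair (0.0911) or without the MS-strain WT pair (0.285).

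Ccl5, a ligand of Ccr1 and Ccr3, had 0 counts in the CRMC pools, against 220, 370, 257 and 53.0 CPM in spleen pools, at least 1789-fold lower (979-fold without the MS-CKO pool of CRMCs). Cxcr2, the neutrophil receptor, had 0, 0.442, 0 and 0 CPM in CRMC pools, against 214, 12.1, 327 and 130 CPM in spleen pools. Ccr1, with 0 counts in CRMC pools and 5.06 to 112 CPM in spleen pools, was at least 426-fold lower (272-fold without the MS-CKO spleen pool and 233-fold without the MS-CKO pool of CRMCs). Ccr7, the receptor of migrating dendritic cells, was at 0 in CRMC pools and in the KO-strain WT spleen pool, and between 56.6 and 111 CPM in the other 3 spleen pools. Cx3cr1 had 0, 0, 59.2 and 311 CPM in CRMC pools, against 375, 628, 142 and 88.4 CPM in spleen pools, so it overlapped and was missing from both KO-strain CRMC pools.

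Other cell types moved with these differences. Neutrophil markers summed to 0 to 518 CPM in CRMC pools and 15224 to 31907 CPM in spleen pools, B cell markers to 0 CPM in CRMC pools and 1603 to 2514 CPM in spleen pools, and corneal epithelial markers to 9473 to 38369 CPM in CRMC pools and 0 CPM in spleen pools. Keratocyte markers moved too: Dcn, a matrix proteoglycan, was at 1842 to 25690 CPM in CRMC pools and 0 CPM in spleen pools. Whole cornea had a mean of at most 1.86 CPM of Cxcl2 in a WT group, but its Dcn was at 619 to 1226 CPM, so it does not stand for the other cells of the CRMC pools. A list of immediate early and heat shock genes, chosen after the data were seen, summed to 10597 to 21964 CPM in CRMC pools and 1742 to 3197 CPM in spleen pools. The part of cell makeup and of stress in the member differences was not tested, and organ and the steps of cell release cannot be told apart.

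**Figure D4:**
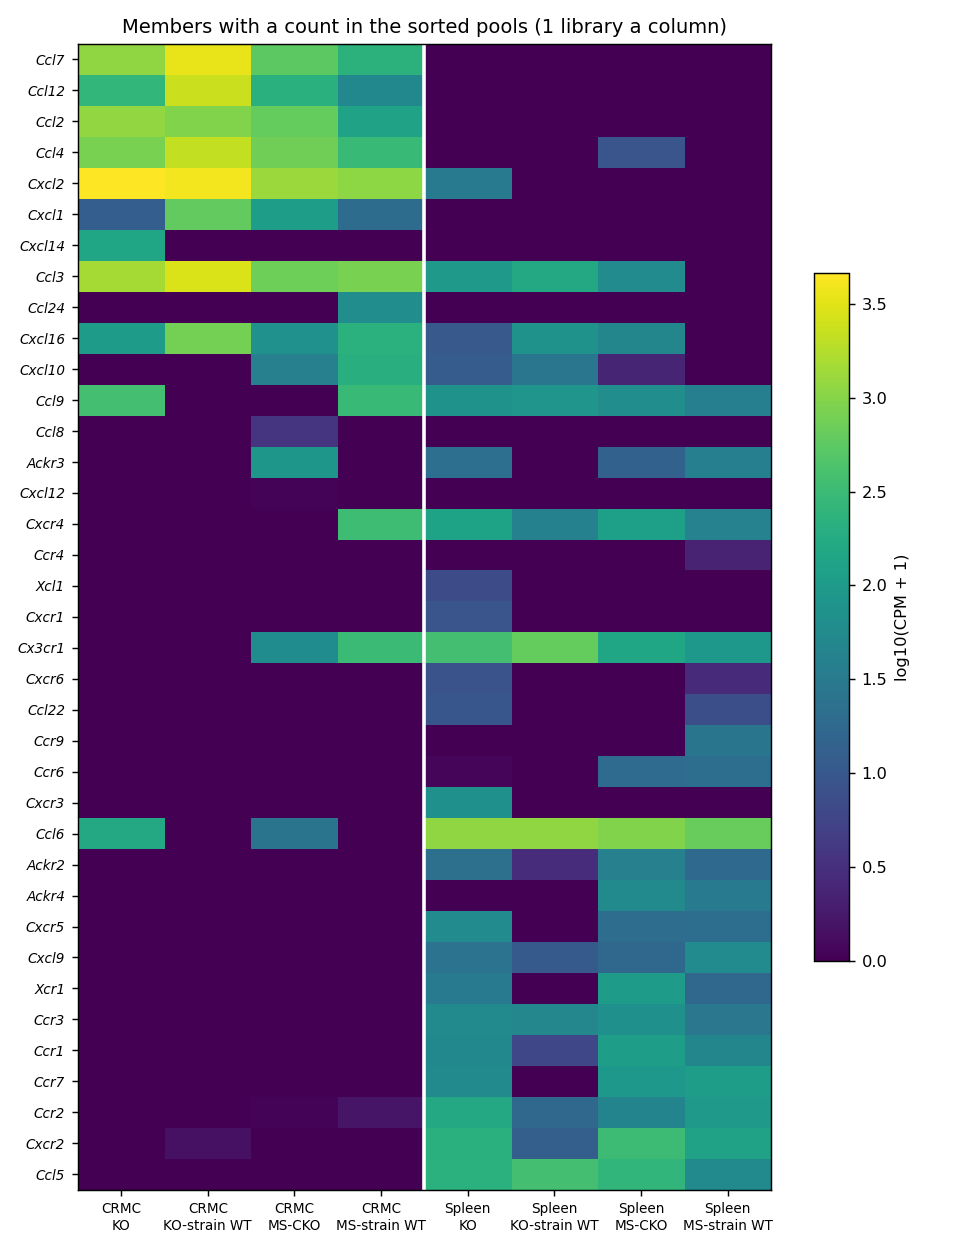
Colour map of log10(CPM + 1) for the members with a count in at least 1 sorted pool, 1 member left out; each column is 1 pool, CRMC pools left of spleen pools, and members are ordered by the difference between the organs. Ccl7, Ccl12 and Ccl2 fill all 4 CRMC columns and are at 0 in all 4 spleen columns, and Ccl5 and Ccr1 show the reverse.

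The promoters of the CRMC ligands, here the 8 members with counts in every CRMC pool, were searched for the NF-kappaB motif by name on both strands. The window ran from 250 bases before to 50 after the gene start in RefSeq GRCm38.p6. The motif was chosen since Cxcl1 and Cxcl2 are neighbours that share it, so its presence in these 2 is no independent finding. The motif was in 12 of 45 members with a promoter in the table (26.7%), beside 2779 of 32851 promoters (8.46%). Only 4 of the 8 CRMC ligands had a promoter there, and the 2 of them with the motif were Cxcl1 and Cxcl2. Motif bases are in capitals.
Cxcl1, chr5:90891166-90891191, plus strand: tgtactccGGGAATTTCCctggcccg
Cxcl2, chr5:90903794-90903819, plus strand: tgagctcaGGGAATTTCCctggtccc

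The same motif letters start 71 bases before the start of Cxcl1 and 97 bases before that of Cxcl2. Cxcl3, which also holds the motif, was at 0 in every library.

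Knockout and WT pools were compared within each strain, KO against KO-strain WT and MS-CKO against MS-strain WT. With 1 pool a group there is no test, and the 95% exact binomial intervals cover counting error only. Among 10 members with at least 50 counts in both CRMC pairs, 1 was at least 2-fold higher in the null pool of both strains (Ccl6), where 40.3% of genes were, and 1 was at least 2-fold lower in both (Cxcl16), where 5.94% were. Both null pools held more epithelial RNA and more genes: Krt12 was at 22612 CPM in KO and 4600 CPM in KO-strain WT CRMCs, and at 13244 CPM in MS-CKO and 2975 CPM in MS-strain WT CRMCs, with counts in 3488 gene rows against 1650 and in 6455 against 3380. The part of these in the member ratios was not tested. Another 5 moved at least 2-fold in opposite directions in the strains (Ccl12, Ccl4, Ccl7, Ccl9 and Cxcl1), where 26.8% of genes did.

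Ccl6 had 675 counts in KO and 0 in KO-strain WT CRMCs, at least 121-fold higher, and 271 counts in MS-CKO and 0 in MS-strain WT CRMCs, at least 54.9-fold higher. Cxcl16 had 431 counts in KO and 1785 in KO-strain WT CRMCs (ratio 0.130, 0.116 to 0.144), and 761 in MS-CKO and 1450 in MS-strain WT CRMCs (ratio 0.319, 0.292 to 0.349). Cxcl2, the highest member of the CRMCs, differed little, with ratios of 1.16 (1.13 to 1.19) in the KO strain and 1.18 (1.15 to 1.21) in the MS strain. Ccl2 was 1.26 (1.19 to 1.32) times the WT in the KO pool and 4.83 (4.49 to 5.19) times in the MS-CKO pool.

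In spleen, 19 members reached the count minimum in both pairs. The 5 that were at least 2-fold higher in both null pools, where 11.9% of genes were, were 4 receptors and 1 atypical receptor. The KO spleen pool held counts in 10559 gene rows and 26 members, against 7323 and 15 in its WT pool. The MS-CKO spleen pool held counts in 8658 gene rows and 21 members, against 9449 and 22 in its WT pool. The part of these in the spleen ratios was not tested. Cxcr2 had ratios of 17.7 (13.7 to 23.3) in the KO strain and 2.52 (2.36 to 2.69) in the MS strain, Ccr1 10.1 (6.75 to 15.7) and 2.41 (2.15 to 2.70), and Cxcr4 3.40 (2.91 to 3.98) and 2.74 (2.44 to 3.09). Ackr2 had ratios of 11.1 (5.86 to 23.7) and 2.27 (1.89 to 2.75). Xcr1, the receptor of cross-presenting dendritic cells, had 209 counts in KO and 0 in KO-strain WT spleen cells, at least 55.6-fold higher, and a ratio of 6.47 (5.43 to 7.75) in the MS strain.

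Ackr3, Ccl22, Ccr2, Cxcl16 and Cxcl9 moved at least 2-fold in opposite directions in the spleen pools of the strains, where 20.3% of genes did. Ccl6, the highest member of the spleen pools, had a ratio of 1.0 (0.967 to 1.04) in the KO strain and 1.46 (1.41 to 1.51) in the MS strain. Whether the organs differ in Ccl6 was not tested.

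**Figure D5:**
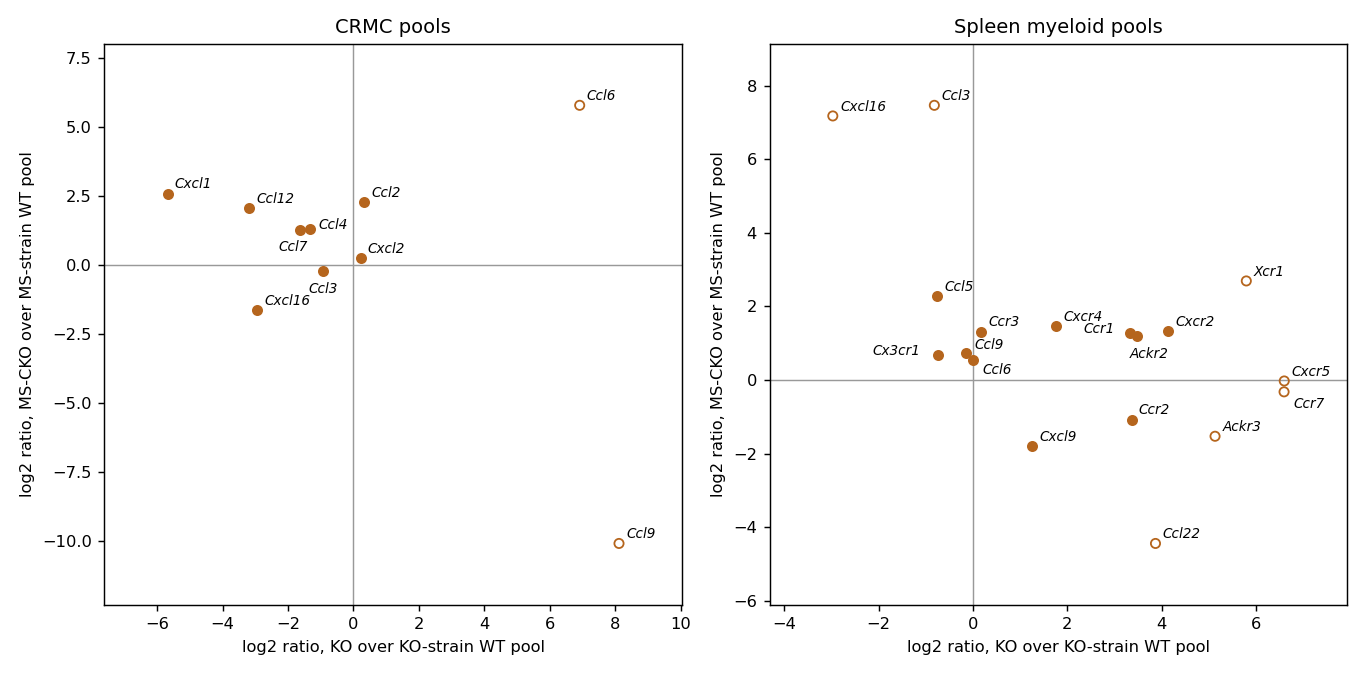
Log2 ratio of KO over KO-strain WT pools (x axis) against MS-CKO over MS-strain WT pools (y axis) for members with at least 50 counts in both pairs, CRMCs left and spleen right, 1 spleen member left out; open points have 0 counts in 1 pool and are drawn at the bound from 3 counts. Of the 10 CRMC members only Ccl6 and Cxcl16 passed 2-fold the same way in both.

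The signalling genes downstream of the receptors were read from a list of 71 genes, of which 69 were in the table. In the 4 CKO comparisons 0 were called in either direction, with 60, 59, 56 and 56 tested, in the order TG SNS, TG MS, cornea SNS and cornea MS, where 0.0392%, 0%, 0% and 0% of genes were. At an unadjusted p under 0.05, 5, 0, 6 and 0 were higher and 3, 1, 3 and 1 lower, where 6.67%, 2.98%, 6.24% and 3.56% of genes passed in either direction. Up to 18 of those tested appear in the study's own tables for these samples and are not independent evidence of a direction. In SNS-CKO ganglia Akt1, a kinase downstream of PI3K, averaged 219 ± 22.2 CPM, against 183 ± 15.8 CPM in WT (0.26, SE 0.09, edgeR adjusted p = 0.574), and Foxo3, a transcription factor that Akt inhibits, 70.9 ± 5.47 CPM, against 55.6 ± 5.41 CPM in WT (0.34, SE 0.12, edgeR adjusted p = 0.574).

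Between WT ganglion and cornea 23 of 59 were higher and 28 lower in the SNS strain, where 41.3% of genes were higher and 37.2% lower, and 23 and 27 in the MS strain, where 40.4% and 37% were. The G protein subunits Gnai1 (7.05 and 7.89 on the log2 scale) and Gng2 (7.0 and 7.31) were far higher in TG in both strains. Between CRMC and spleen pools 0 of 57 were higher and 1 lower: Rac2, the Rac GTPase of blood cells, averaged 196 CPM in CRMC pools and 1863 CPM in spleen pools (edgeR adjusted p = 0.00237), where 0.848% of genes were called higher and 1.16% lower.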

How the data were processed

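RNA from TG, cornea and sorted Csf1r-EGFP+ cells was made into 3′ end libraries (QuantSeq FWD). Per the labels, the authors used STAR on mm10 and then HTSeq; for neither was a version or strand setting given in the sources used here. Raw counts per gene were deposited in 54 sample columns. Of these 42 were used, 11 were left out as copies of columns read as MS-strain, and 1 had no header. 1 member enters the totals, but its own results are not reported here. The members and lists were chosen with earlier results of these data known. Columns were read as SNS or MS strain from their names. The alternative reading took all untagged TG and cornea columns as SNS and all B2-tagged ones as MS. CPM were counts over the library total. Comparisons used edgeR 4.0.16 (R 4.3.3, limma 3.58.1; TMM factors, filterByExpr, glmQLFit and glmQLFTest), with Benjamini-Hochberg adjustment over all genes tested and a threshold of 0.05. Group comparisons had no covariate, and CRMC against spleen had genotype as the pair. Fits were tested on simulated data; those of TG and cornea recovered most changes put in, and that of CRMC against spleen, at the spread estimated for the pools, did not. Alternatives were DESeq2 1.42.0, RLE factors, library totals, no filter, a replicate block, all groups in 1 fit, the B2 tag, and leaving out each library. Sorted null pools were set against WT pools by CPM ratio at 50 counts or more and 2-fold, with exact binomial intervals at 95%. Floors were 3 counts over a group; intervals and floors cover counting error only, since reads carry no molecular identifiers. Members named with values in every library were Cx3cl1 and Cx3cr1, the 3 smallest p-values of each CKO comparison, the 5 highest means of each tissue and up to 8 non-overlapping calls each way between tissues. Gene positions and 3′ UTRs came from the GENCODE vM21 annotation of GRCm38.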

Additional observations from a re-analysis of the deposited data

Results flagged for a closer look

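In groups of 4 or 5 libraries, 4 member values of 73 groups tested stood far from the rest of their group; chance gives about 1 in 20 groups. Cxcl9, an interferon-induced ligand of Cxcr3, had 9.53 CPM in TG of MS-CKO 1, where the other 4 MS-CKO ganglia had 0 to 0.681 CPM. Cxcr4 had 19.9 CPM in TG of MS-CKO 2, where the others had 7.59 to 10.9 CPM. Cxcl16 had 28.9 CPM in the cornea of MS-CKO 5, where the others had 18.7 to 19.9 CPM. Cxcl14 had 15.7 CPM in the cornea of MS-strain WT 5, where the others had 3.18 to 6.23 CPM. The last 2 libraries carry the B2 tag.

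In the sorted pools, 10 member and organ combinations moved at least 2-fold one way in the KO strain and at least 2-fold the other way in the MS strain: 5 of 10 members in CRMCs, where 26.8% of genes did, and 5 of 19 in spleen, where 20.3% did. With 1 pool a group, the difference between the strains was not tested. In CRMCs, the ratio of the null pool to its WT pool was 0.110 in the KO strain and 4.17 in the MS strain for Ccl12, 0.396 and 2.46 for Ccl4, and 0.325 and 2.43 for Ccl7. For Cxcl1 the ratios were 0.0194 and 5.97. Ccl9, a myeloid CC ligand, was at least 278-fold higher in the KO pool and at least 1092-fold lower in the MS-CKO pool. So the CC ligands Ccl12, Ccl4 and Ccl7 and the Cxcr2 ligand Cxcl1 were lower in KO CRMCs and higher in MS-CKO CRMCs.

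In spleen, Ccr2 had a ratio of 10.3 in the KO strain and 0.472 in the MS strain, and Cxcl9 had 2.40 and 0.287. Ackr3 was at least 35.1-fold higher in the KO pool and had a ratio of 0.347 in the MS strain. Ccl22, a dendritic cell ligand of Ccr4, was at least 14.6-fold higher in the KO pool and at least 21.7-fold lower in the MS-CKO pool. Cxcl16 had a ratio of 0.128 in the KO strain and was at least 145-fold higher in the MS-CKO pool.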

How the results depend on the processing

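Of 48 named member results, 38 kept their direction in every alternative run, and of 683 alternatives 650 kept direction and call, 14 lost a call and 19 changed sign. No sign change involved a member called in the comparison. The other reading of the strain names took untagged libraries as SNS and tagged ones as MS. With it, Cx3cl1 in TG was 0.26 in the SNS and -0.63 in the MS comparison. Cxcl10 in TG was -0.47, and Cx3cr1 in TG was 0.0024 in the MS comparison. Ccl27a in cornea was 0.67 in the SNS and -0.21 in the MS comparison. Within the untagged libraries of the MS strain Cx3cr1 in TG was 0.0836 and Cxcl14 in cornea 0.35. Within the tagged ones Cxcl10 in TG was -0.39, Cx3cl1 in cornea -0.11 and Cx3cr1 in cornea -0.27.

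Leaving out 1 library at a time gave -0.19 to 0.39 for Cx3cr1 in SNS-CKO TG (below 0 without SNS-CKO 1 or WT 2), -0.11 to 0.29 for Cx3cl1 in MS-CKO TG (below 0 without MS-CKO 1), -0.73 to 0.0288 for Cxcl14 in MS-CKO cornea (above 0 without WT 5), -0.0802 to 0.43 for Cx3cr1 in MS-CKO cornea (below 0 without MS-CKO 3) and -0.0691 to 0.0953 for Cx3cl1 in MS-CKO cornea (below 0 without MS-CKO 2, MS-CKO 3 or WT 2). The cause was not tested.

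The count of members called in MS-CKO TG was 1 at an unadjusted p (Cxcl16), 1 without a filter and 1 within the tagged libraries (both Ccl27a), against 0. In SNS-CKO cornea it was 1 unadjusted (Cx3cl1), and in the TG difference between strains 1 unadjusted and 1 without a filter (both Ccl27a; -2.70, edgeR adjusted p = 9.8e-06 without a filter). Without a filter, which tests more genes, 26 and 25 members were called between TG and cornea in the SNS and MS strains, where 54.1% and 54.8% of genes were, against 14 and 12.

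Between CRMC and spleen pools the count of 6 became 15 unadjusted (where 23.8% of genes passed), 18 with DESeq2 (62.9%) and 12 without the genotype pair (19.4%), and 2 to 5 when 1 genotype pair was left out (1.09% to 2.26%). RLE factors, no filter and library totals gave 5 each (1.84%, 0.828% and 1.7%), losing Ccl6 (edgeR adjusted p = 0.0803, 0.0766 and 0.0954), and the median log2 difference over all genes moved between -6.73 and -6.20 over the 4 scalings.

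Same-numbered libraries did not deviate together in every pair, and the labels do not say whether they come from 1 mouse. The main fits therefore took no pairing by number. Between TG and cornea of the MS strain, the correlations of same-numbered libraries 1 to 5 were 0.0495, 0.016, 0.05, 0.031 and 0.148. The same-numbered library was the best match there for 1, 3, 4 and 5 and not for 2. In the SNS strain it was so for 1 and not for 2, 3 and 4. Whether those libraries are pairs was not settled. With a replicate block, 0 members were called in each of the 4 CKO comparisons and 14 and 12 between tissues, which changed no call. Cornea libraries with few counts per member and pools of 1 library a group limit what could be seen: most members lay under the filter in cornea, and no ratio between sorted pools has a replicate check.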
